A study of Mus musculus with 27 samples.

Results

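Gene expression was compared between cells of p107-deficient mouse fetal liver after 24 h in culture and the same kind of cells taken at 0 h. Of the 27 arrays in the series, 4 made up this comparison, 2 labelled p107 KO at 24 h and 2 labelled p107 KO at 0 h, and all 10916 genes that passed a brightness filter were followed. p107 KO (p107KO below) denotes a knockout of p107, whose gene symbol is Rbl1. Total RNA came from livers at stage E14.5, cultured at 37 degrees C in Iscove's modified Dulbecco medium with 30% fetal bovine serum, bovine serum albumin, monothioglycerol, glutamine and antibiotics, with no further treatment. The groups set beside it, in the same medium and at the same embryonic day, were wild type (WT, 3 arrays at 0 h and 2 at 24 h) and Rb1 KO (Rb1KO, a knockout of Rb1, 5 and 4 arrays). A single p107KO array at 48 h was used for description only. The labels name neither the altered part of Rbl1 or Rb1 nor the embryo or litter behind an array, so the p-values rest on the spread between arrays, part or all of which may be technical.

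Red cells are made chiefly in the liver at this fetal stage. Its erythroblasts mature beside macrophages, in a tissue built of hepatoblasts, sinusoidal endothelium and stroma, and the labels record no step that separates these cells. p107, Rb1 and p130 (Rbl2) are the pocket proteins, which bind E2F transcription factors and hold back genes of S phase entry. p107 itself is encoded by an E2F target and joins the DREAM complex, which silences cell cycle genes in resting cells.

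Values are signals on a linear scale in arbitrary units, made equal in overall brightness by the authors, and changes are differences of log2(signal + 32) with their standard error (SE). Replicate 1 at 24 h stood apart from replicate 2. Its median correlation across genes with the other 24 h arrays was 0.947, against 0.957 in replicate 2, and its brightest signal was 154046, against 51378 in replicate 2. In the 110 brightest genes (top 1%) its log2 signal exceeded that of replicate 2 by a median of 0.85, while the median difference lay between -0.14 and 0.09 in the dimmer classes. Other arrays of the series had similarly bright maxima. Rb1KO 24 h replicate 1 reached 143080 (median correlation 0.937), and replicate 1 of the knockout of both genes at 24 h reached 125649 (0.952). Replicate 1 of p107KO at both times carried signal of the Y-linked gene Eif2s3y (1075 at 0 h and 2665 at 24 h). Replicate 2 of p107KO at both times did not (9.5 and 11.3), so each time held 1 p107KO array of each kind.

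The targeted gene was low in every p107KO array. Rbl1 signals were 117 and 109 at 0 h and 168 and 126 at 24 h, and 70.3 at 48 h. In WT the mean was 1619 ± 110.5 (SD, n = 3) at 0 h and 1428 ± 219 (SD, n = 2) at 24 h, far above all p107KO arrays. The change of Rbl1 in p107KO culture was 0.29 ± 0.27 (limma adjusted p = 0.457). Rb1 gave 6651 and 6351 at 0 h and 9992 and 8279 at 24 h, with the 24 h arrays above the 0 h arrays and a change of 0.48 ± 0.24 that missed the threshold (limma adjusted p = 0.144). Rbl2, encoding p130, gave 475 and 499.5 at 0 h and 151 and 479 at 24 h. Its 24 h arrays lay far apart, and the change of -0.76 ± 0.34 missed the threshold as well (limma adjusted p = 0.098). The MuvB core genes encode the scaffold of DREAM. Of the 8 pocket protein and MuvB core genes tested, 0 passed the threshold in either direction, against 28.1% of all genes. Their log2 changes ran from -0.76 to 0.48. Both cultured arrays lay above both fresh ones in 5 of the 8 and below in 0, against 29.9% and 33.7% of all genes.

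Between 0 h and 24 h, 3070 of 10916 genes (28.1%) passed an adjusted p of 0.05 in limma, 1250 (11.5%) higher and 1820 (16.7%) lower. A change of 2-fold or more was reached by 626 genes higher (5.73%) and 1248 lower (11.4%). At 8-fold the imbalance was wider, with 39 genes higher and 254 lower. The arrays of the 2 times did not overlap in 6943 genes (63.6%), with 29.9% of all genes higher and 33.7% lower on both cultured arrays. The median change over all genes was -0.02. Leaving out replicate 1 of 24 h gave 1959 calls, and leaving out replicate 1 of 0 h gave 1948. Of 334 called list members and leading genes, 205 stayed past the threshold without each of the 4 arrays in turn. Genes said below to have risen or fallen belong to these 205 unless an adjusted p without an array is given.

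**Figure D1:**
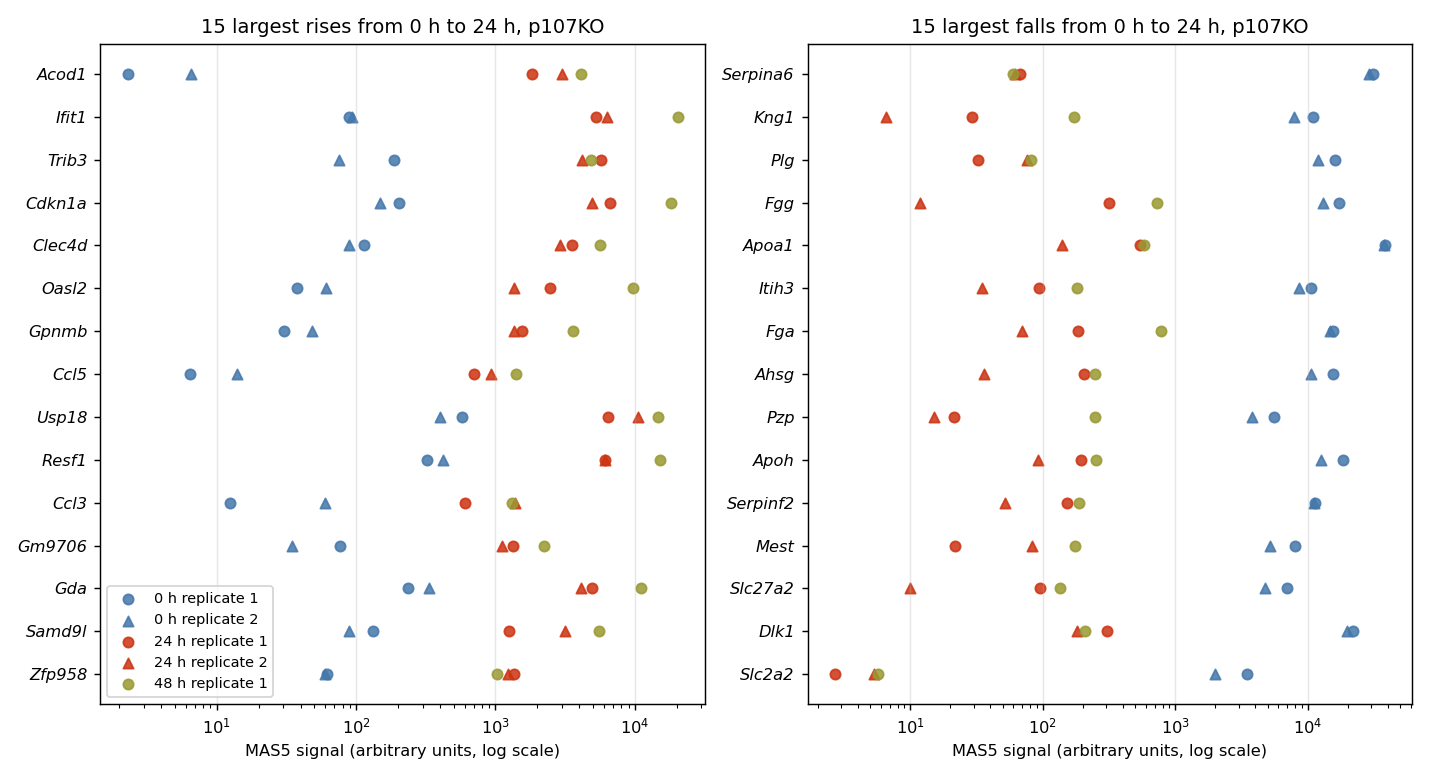
Signal (log axis, arbitrary units) in each p107KO array for the 15 genes with the largest rises (left) and the 15 with the largest falls (right) between 0 h and 24 h; circles are replicate 1, triangles replicate 2, and colour gives the time. Arrays that do not overlap were a condition for a gene to be shown and were found in 63.6% of all genes; the widest gaps are those of Acod1 at the top of the rises and Serpina6 at the top of the falls.

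The steepest rise was that of Acod1, which makes the macrophage metabolite itaconate. Its signals were 2.3 and 6.6 at 0 h and 1835 and 2980.5 at 24 h, and 4084 at 48 h, a change of 6.03 ± 0.36 (limma adjusted p = 4.28e-11). Both 0 h arrays lay below the added 32, so the change depends on that constant. Trib3, a pseudokinase induced by amino acid and endoplasmic reticulum stress, gave 186 and 75.8 at 0 h and 5699 and 4141 at 24 h (5.0 ± 0.35). Cdkn1a, the CDK inhibitor p21, gave 202 and 149 at 0 h and 6641 and 4884 at 24 h, and reached 18241 at 48 h (4.8 ± 0.29). All 3 genes were low on both fresh arrays and high on both cultured arrays. Clec4d, a C-type lectin receptor of myeloid cells, gave 114 and 89.1 at 0 h and 3562 and 2919.9 at 24 h (4.62 ± 0.40). Gpnmb, a glycoprotein of lysosome-rich macrophages, changed by 4.38 ± 0.39. The other leading rises were Gda, a guanine deaminase (3.86 ± 0.25), Samd9l, an interferon-inducible gene (3.84 ± 0.49), Resf1 (3.94 ± 0.41), Gm9706 (3.87 ± 0.37) and Zfp958 (3.83 ± 0.36). The remaining 5 of the 15 were interferon and chemokine genes, described next.

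Interferon response genes had the highest share of rising members of all lists examined: 20 of the 24 tested were higher (83.3%, against 11.5% of all genes), 0 were lower, and the list's median change was 2.33. Interferons switch these antiviral genes on through receptors at the cell surface. Ifit1, which binds viral RNA, led with 89.3 and 93.1 at 0 h and 5267 and 6291 at 24 h, and 20189 at 48 h (5.55 ± 0.44, limma adjusted p = 2.29e-09). Oasl2, a relative of the RNA-sensing oligoadenylate synthetases, gave 38 and 60.8 at 0 h and 2465 and 1351 at 24 h (4.53 ± 0.60). Usp18, which removes the ubiquitin-like tag ISG15 and damps the receptor, gave 578 and 399 at 0 h and 6458 and 10506 at 24 h (4.01 ± 0.40). In these genes the 2 cultured arrays were both far above the fresh ones. The RNA sensor Ifih1 rose by 3.57 ± 0.37, Rtp4 by 3.73 ± 0.45, and the factor Irf7, which amplifies interferon production, by 3.47 ± 0.39. Irf9, an interferon regulatory factor, rose by 2.49 ± 0.21. Gbp2 rose by 1.03, a call lost with any of 3 arrays left out (limma adjusted p of 0.058 without 0 h replicate 1, 0.132 without 0 h replicate 2 and 0.166 without 24 h replicate 2). Irf1 (0.38 ± 0.28), Mx1 (1.27 ± 0.56), Mx2 (1.36 ± 0.75) and Iigp1 (0.59 ± 0.34) did not pass. Without replicate 1 of 24 h 21 members were higher, and without replicate 2 of 24 h 15 were. Oas1a has close paralogs whose signal its probe sets may share.

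Promoters of many interferon-induced genes hold a known sequence element, and 2 of them are shown for where it lies. The interferon-stimulated response element was searched on both strands, overlaps allowed, as GAAA, any 2 bases and GAAA, from 250 bases before to 50 after each RefSeq start (GRCm38.p6). This motif was chosen after the values had been seen. Of the 20 genes that rose, 16 had a promoter in the table, with 19 windows, and 11 of those 19 windows (57.9%) held it. It occurred in 3.44% of all 32851 windows, in 2.98% of the windows of genes tested, in 5.99% of those of all genes that rose and in 2.6% of those that fell. The 250 bases before the start are printed 5′ to 3′ on the gene's strand, with matches in capitals, for the gene with the largest change and for its neighbour Ifit3 (2.53 ± 0.54), at chr19:34640639-34640888 (plus strand) and chr19:34583279-34583528 (plus strand).
Ifit1: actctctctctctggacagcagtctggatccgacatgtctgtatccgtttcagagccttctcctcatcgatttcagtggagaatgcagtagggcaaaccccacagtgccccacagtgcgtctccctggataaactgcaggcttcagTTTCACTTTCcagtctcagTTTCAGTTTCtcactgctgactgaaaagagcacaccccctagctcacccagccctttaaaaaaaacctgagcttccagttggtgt
Ifit3: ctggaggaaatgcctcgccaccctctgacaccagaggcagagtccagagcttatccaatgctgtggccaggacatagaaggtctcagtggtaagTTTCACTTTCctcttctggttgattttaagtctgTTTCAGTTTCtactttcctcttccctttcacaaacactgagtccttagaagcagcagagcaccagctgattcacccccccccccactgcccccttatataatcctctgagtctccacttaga
Both windows hold 2 matches, the same pair of variants in the same order, the first TTTCACTTTC and the second TTTCAGTTTC. They begin 104 and 85 bases before the start of Ifit1, and 156 and 122 bases before that of Ifit3. A match is a description of the letters and no evidence of binding in these cells.

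Chemokine and cytokine genes were higher in 9 of 17 tested (52.9%, against 11.5% of all genes) and lower in 2 (11.8%, against 16.7%), with a median of 1.15. The number lower was 1 without replicate 1 of 0 h or without either 24 h array. Ccl5, which draws T cells and monocytes, gave 6.4 and 14.1 at 0 h and 706 and 922 at 24 h (4.32 ± 0.43, limma adjusted p = 8.28e-08). Ccl3, a macrophage inflammatory protein, gave 12.5 and 59.5 at 0 h and 609 and 1375 at 24 h (3.9 ± 0.49). Ccl2, the monocyte attractant, gave 17.7 and 23.4 at 0 h and 409 and 567 at 24 h (3.29 ± 0.40), and Cxcl3, a neutrophil attractant, gave 21.5 and 10.3 at 0 h and 277 and 398 at 24 h (2.94 ± 0.35). For these 4 genes no cultured array fell within the range of the fresh ones. Cxcl12, which stromal cells make and which retains stem cells in their niche, fell instead, with 1771 and 1321 at 0 h and 109.6 and 48.6 at 24 h (-3.87 ± 0.55). Among activated macrophage and lysosomal genes 6 of 23 were higher (26.1%) and 4 lower (17.4%, near the 16.7% of all genes), with a median of 0.03. Gpnmb gave 30.2 and 48.6 at 0 h and 1542 and 1352 at 24 h, and Mmp13, a collagenase, gave at most 35.1 at 0 h and at least 319.7 at 24 h (2.88 ± 0.40). Cd14, the lipopolysaccharide co-receptor, gave 265 and 182 at 0 h and 1589 and 1796 at 24 h (2.77 ± 0.49). The lysosomal enzymes Acp5 (-2.54 ± 0.26) and Ctsl (-1.62 ± 0.30) fell over the same 24 h.

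Genes of the integrated stress and unfolded protein response were more often higher than lower. When amino acids run short or translation is blocked at its initiation factor, Atf4 is translated and turns on genes of amino acid supply and of the pause in protein synthesis. Of 30 list members tested, 14 were higher (46.7%, against 11.5% of all genes) and 4 lower (13.3%, against 16.7%), and 14 were higher without each of the 4 arrays in turn. The number lower was 1 without replicate 1 of 24 h and 2 without replicate 1 of 0 h. Besides Trib3, Nupr1, a stress-induced chromatin protein, gave 40.7 and 80.4 at 0 h and 1258 and 839 at 24 h (3.55 ± 0.49, limma adjusted p = 6.52e-06). Ddit3, the factor CHOP, gave 613 and 798 at 0 h and 6850.1 and 5669 at 24 h (3.1 ± 0.19). Sesn2, which restrains mTORC1 when leucine is low, gave 176 and 56.3 at 0 h and 827 and 1330.1 at 24 h (3.0 ± 0.57). All of them were several-fold higher on both cultured arrays. Chac1, which degrades glutathione (2.85 ± 0.27), Cebpb (2.69 ± 0.44), the cystine carrier Slc7a11 (2.6 ± 0.39), Atf5 (2.21 ± 0.37) and Atf4 itself (1.25 ± 0.17) rose too. Pdia4, a disulphide isomerase that folds secreted proteins, fell, with 1688 and 986 at 0 h and 213 and 423 at 24 h (-1.99 ± 0.38). The chaperone Hspa5 gave -0.20 ± 0.24 and did not pass. The other lower members were the chaperone genes Hsp90b1, which fell by 0.96 (limma adjusted p of 0.104 without 24 h replicate 1), and Hyou1, at -0.94 ± 0.28 (limma adjusted p of 0.143 without 0 h replicate 1, 0.081 without 24 h replicate 1 and 0.0511 without 24 h replicate 2), and Psat1, of serine synthesis, at -0.78 ± 0.24 (limma adjusted p of 0.074 without 0 h replicate 1, 0.0883 without 0 h replicate 2 and 0.306 without 24 h replicate 1).

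Atf4 binds the CARE element, searched here as TGATGNAA on both strands in the same windows. Of the 14 genes that rose, all had a window, and 6 of their 15 windows (40%) held the motif, against 3.97% of all windows and 3.15% of those of all genes that rose. The windows of Chac1 (chr2:119350992-119351241, plus strand), Nupr1 (chr7:126625471-126625720, minus strand) and Slc7a11 (chr3:50443614-50443863, minus strand) are shown as 3 examples that hold it within the 250 bases before the start. Atf3 and Asns hold it there too, and Trib3 holds it 15 bases after the start.
Chac1: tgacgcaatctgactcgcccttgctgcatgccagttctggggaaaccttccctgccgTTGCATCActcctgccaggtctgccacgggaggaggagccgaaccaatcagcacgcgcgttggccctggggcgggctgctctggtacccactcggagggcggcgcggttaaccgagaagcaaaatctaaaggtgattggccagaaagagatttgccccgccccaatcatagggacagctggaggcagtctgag
Nupr1: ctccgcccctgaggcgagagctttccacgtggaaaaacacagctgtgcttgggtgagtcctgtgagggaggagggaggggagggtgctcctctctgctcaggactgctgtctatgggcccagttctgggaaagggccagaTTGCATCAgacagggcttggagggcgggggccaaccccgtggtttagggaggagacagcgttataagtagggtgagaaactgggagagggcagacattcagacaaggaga
Slc7a11: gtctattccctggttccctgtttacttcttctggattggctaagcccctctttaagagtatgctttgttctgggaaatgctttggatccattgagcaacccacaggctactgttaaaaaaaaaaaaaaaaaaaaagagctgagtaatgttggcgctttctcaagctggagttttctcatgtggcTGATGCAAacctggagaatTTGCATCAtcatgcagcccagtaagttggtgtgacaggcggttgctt
Chac1 and Nupr1 each hold 1 match, TTGCATCA, beginning 193 and 110 bases before the start. Slc7a11 holds 2 matches of opposite orientation, beginning 66 and 47 bases before it. No match in a window says only that these letters are not there.

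Targets of p53, the factor that answers DNA damage and other stress, were higher in 13 of 23 tested (56.5%, against 11.5% of all genes), with 1 lower (4.35%, against 16.7%) and a median of 1.00. Cdkn1a led the list. Trp53inp1, an autophagy and stress protein, gave 583 and 435 at 0 h and 5746 and 5752 at 24 h (3.43 ± 0.20, limma adjusted p = 4.28e-11), and Ccng1, a cyclin that regulates Mdm2, gave 669 and 788 at 0 h and 8555 and 7158 at 24 h (3.37 ± 0.24). Bbc3, the death promoter PUMA, gave 361 and 512 at 0 h and 3463 and 2799.8 at 24 h (2.77 ± 0.29). Each of these was higher on both cultured arrays than on either fresh one. Mdm2, which degrades p53, rose by 1.67 ± 0.27, Eda2r by 1.74 ± 0.31 and Gadd45a by 2.26 ± 0.20. Perp, a desmosome protein also found in epithelia, fell, with 930.3 and 594 at 0 h and 180.1 and 67.7 at 24 h (-2.42 ± 0.46). Sesn2 and Cdkn1a also belong to other stress pathways. Of the 12 BCL2 family genes tested, 2 were higher (16.7%, against 11.5% of all genes) and 1 lower (8.33%, against 16.7%). The number higher was 1 without either 0 h array, and 0 were lower without replicate 2 of 0 h or without either 24 h array. Bcl2l1 rose by 0.65 ± 0.21 (limma adjusted p of 0.142 without 0 h replicate 1, 0.0694 without 0 h replicate 2 and 0.362 without 24 h replicate 1), and Mcl1, a survival protein, gave -0.01 ± 0.16.

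CDK inhibitors moved in both directions. Cdkn2b, the inhibitor p15 of Cdk4 and Cdk6, gave 29.7 and 47.3 at 0 h and 199 and 319 at 24 h (2.03 ± 0.44, limma adjusted p = 0.00112). Cdkn1b, the inhibitor p27, gave 2128 and 2334 at 0 h and 4925 and 4861 at 24 h (1.12 ± 0.23). Cdkn1c, the imprinted inhibitor p57, fell, with 2456 and 2894 at 0 h and 128 and 63.4 at 24 h (-4.45 ± 0.42). Thus 3 of 6 rose (50%, against 11.5% of all genes) and 1 fell (16.7%, as over all genes). These 4 calls held without each array. Cdkn2c (0.04 ± 0.19) and Cdkn2d (-0.30 ± 0.19) did not pass.

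Of the cell cycle lists, that of E2F-regulated genes gave few calls. Of 53 E2F-regulated G1/S and replication genes, 3 were higher (5.66%, against 11.5% of all genes) and 2 lower (3.77%, against 16.7%), with a median of 0.12. None of these 5 calls held without each of the 4 arrays. Without replicate 1 of 24 h 1 was higher and 0 lower, without replicate 1 of 0 h 0 and 1, and without replicate 2 of 0 h 0 passed either way. Ccne2, which drives Cdk2 at S phase entry, gave 1922 and 2084 at 0 h and 4465 and 3265 at 24 h (0.92 ± 0.29, limma adjusted p of 0.117 without 0 h replicate 1, 0.0639 without 0 h replicate 2 and 0.203 without 24 h replicate 1). Rrm2, the small subunit of ribonucleotide reductase, changed by 0.67 ± 0.23 (limma adjusted p of 0.139 without 0 h replicate 1, 0.106 without 0 h replicate 2 and 0.459 without 24 h replicate 1). Of 50 G2/M and mitosis genes, 8 were higher (16%, against 11.5% of all genes) and 1 lower (2%, against 16.7%), with a median of 0.24. Both cultured arrays lay above both fresh ones in 28 of the 50 and below in 3, against 29.9% and 33.7% of all genes. The condensin subunit Smc4 gave 1579 and 4365 at 0 h and 22194 and 17059 at 24 h (2.87 ± 0.54, limma adjusted p = 0.000274), and its partner Smc2 gave 3297 and 3616 at 0 h and 10585 and 11394 at 24 h (1.66 ± 0.29). Cenpe, the kinetochore motor, gave 489.7 and 471 at 0 h and 1756 and 1628 at 24 h (1.75 ± 0.42). These 3 were higher on every cultured array, while the mitotic kinase Cdk1 (-0.04 ± 0.15), Plk1 (0.40 ± 0.27) and Aurkb (0.19 ± 0.20) did not pass. Without replicate 1 of 0 h 5 mitosis genes were higher. Missing the threshold does not show that the other genes were unchanged. In simulated data at this design, 47% of genes changed 2-fold and 88% of those changed 4-fold were recovered. There 100 genes were changed by each amount and all others held unchanged, unlike here, so recovery in these data may differ.

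Immediate early genes of the AP-1 family respond within minutes to growth factors and stress. They were higher in 9 of 19 tested (47.4%, against 11.5% of all genes) and lower in 1 (5.26%, against 16.7%). Jund gave 1706 and 2694 at 0 h and 19668 and 13819 at 24 h (2.92 ± 0.37, limma adjusted p = 2.23e-06), Fos gave 295 and 213 at 0 h and 1828 and 1400.3 at 24 h (2.53 ± 0.32) and Jun gave 188 and 172 at 0 h and 873 and 1313 at 24 h (2.38 ± 0.28). All 3 were higher on both cultured arrays. Junb (2.26 ± 0.43) and the stress factor Atf3 (2.4 ± 0.42) rose as well. Ier3 fell (-1.31 ± 0.21), and Egr1 gave 0.42 ± 0.30 without passing.

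NRF2 and antioxidant genes were higher in 11 of 26 tested (42.3%, against 11.5% of all genes) and lower in 3 (11.5%, against 16.7%). Without replicate 1 of 24 h 7 were higher. Srxn1, which repairs oxidised peroxiredoxins, gave 286 and 364 at 0 h and 2348 and 2228 at 24 h (2.71 ± 0.29, limma adjusted p = 2.84e-07). Nqo1, a quinone reductase, gave 499 and 540.4 at 0 h and 1309 and 2095 at 24 h (1.62 ± 0.28). Sqstm1, the autophagy receptor p62, gave 2564 and 2722 at 0 h and 6353 and 7585 at 24 h (1.38 ± 0.20). Cultured and fresh arrays did not overlap in any of the 3. The glutathione transferase Mgst1, abundant in hepatocytes, fell, with 9764 and 7818 at 0 h and 2474 and 1683 at 24 h (-2.08 ± 0.38). Hmox1, heme oxygenase, gave 0.94 ± 0.51 and did not pass (limma adjusted p = 0.18). The antioxidant response element, searched as TGACNNNGC, lay in 5 of the 13 windows of the genes that rose (38.5%), against 12.4% of all windows. It lay in 14.3% of the windows of genes tested and in 16.8% of those of all genes that rose. Of the 4 windows of list members that fell, 1 held it. Of 13 heat shock chaperones 4 were higher (30.8%, against 11.5% of all genes). Their count was 1 without replicate 1 of 24 h, 1 without replicate 2 of 0 h and 2 without replicate 1 of 0 h. The call that held throughout was Hsp90aa1, at 13157 and 15068 at 0 h and 37222 and 25189.9 at 24 h (1.12 ± 0.24, limma adjusted p = 0.00108). Hspa1a and Hspa1b are near-identical copies whose probe sets may read both.

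**Figure D2:**
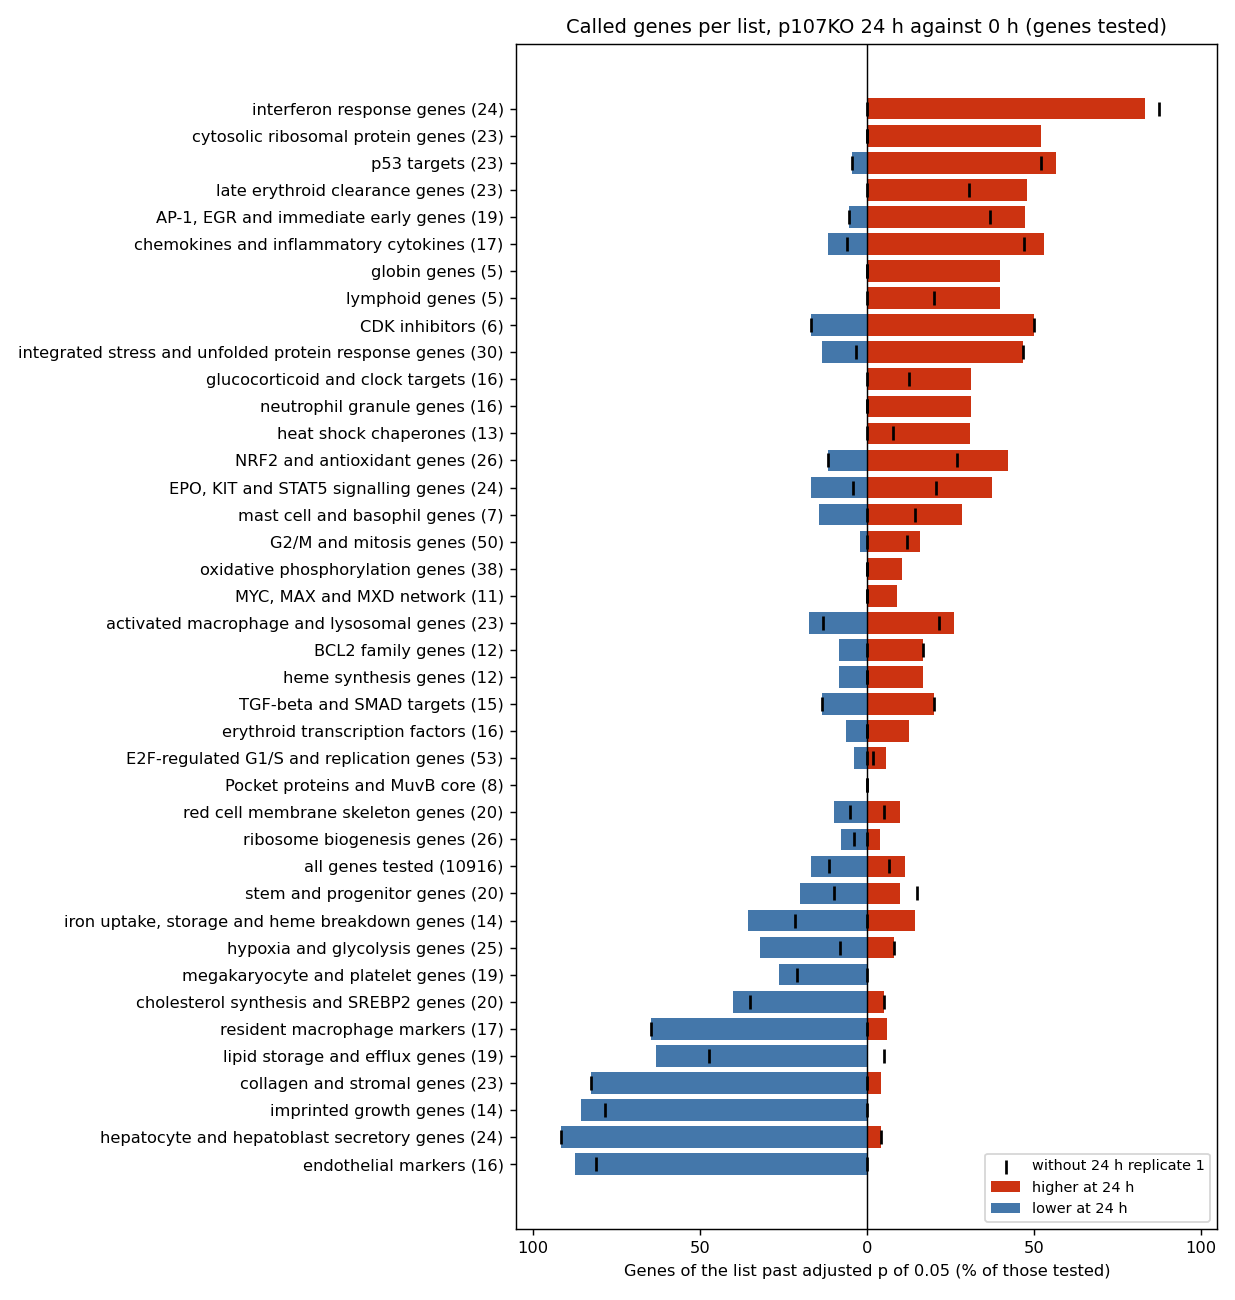
Share of tested genes in each list that were higher (right) or lower (left) at 24 h in p107KO at an adjusted p under 0.05 in limma; bars use all arrays, black ticks are the share without 24 h replicate 1, and the number tested follows each name. Hepatocyte, endothelial, imprinted and stromal lists reach the furthest to the left and interferon genes the furthest to the right, and the ticks of ribosomal protein and neutrophil genes lie at 0.

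The deepest falls were those of liver secretory genes. Serpina6, the corticosteroid-binding globulin of plasma, dropped, with 30855 and 29149.7 at 0 h and 67.6 and 61.8 at 24 h, and stood at 59.1 at 48 h (-8.28 ± 0.48, limma adjusted p = 2.75e-11). Kng1, kininogen, gave 10872 and 7809.5 at 0 h and 29.2 and 6.5 at 24 h (-7.57 ± 0.53). Apoa1, the main protein of high-density lipoprotein, gave 38173 and 37233 at 0 h and 545 and 139 at 24 h (-6.91 ± 0.59). Each of these genes was bright on both fresh arrays and dim on both cultured ones. Plg, plasminogen (-7.38 ± 0.57), the fibrinogen chains Fgg (-6.92 ± 0.75) and Fga (-6.67 ± 0.58), Itih3 (-6.7 ± 0.49), fetuin Ahsg (-6.65 ± 0.54), Pzp (-6.52 ± 0.50), Apoh (-6.51 ± 0.52) and Serpinf2 (-6.51 ± 0.29) followed. Slc27a2, a fatty acid transporter (-6.31 ± 0.52), and Slc2a2, the hepatocyte glucose carrier (-6.2 ± 0.50), completed the hepatic genes among the 15 largest falls.

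Across the hepatocyte and hepatoblast list, 22 of 24 genes tested were lower (91.7%, against 16.7% of all genes) and 1 was higher, with a median of -5.75. Alb, albumin, gave 36484 and 42211 at 0 h and 7375 and 2192 at 24 h (-3.27 ± 0.62), Ttr, transthyretin, gave 42626 and 45912 at 0 h and 2473 and 386 at 24 h (-5.43 ± 0.72), and Afp, alpha-fetoprotein, gave 36057 and 42787 at 0 h and 15765 and 6389 at 24 h (-1.96 ± 0.51, limma adjusted p of 0.105 without 24 h replicate 2). Replicate 1 of 24 h held more of each than replicate 2. The nuclear receptor Hnf4a, which maintains hepatocyte identity, fell (-2.87 ± 0.47). Hp, haptoglobin, went the other way at 1188 and 1252 at 0 h and 3232 and 3370.5 at 24 h (1.41 ± 0.38, limma adjusted p of 0.0508 without 0 h replicate 1). Haptoglobin is also stored in neutrophils. The count of lower genes was 22 without replicate 1 of 24 h. In bulk RNA, fewer cells of a type and less RNA per cell cannot be told apart, which holds for each cell type named here.

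**Figure D3:**
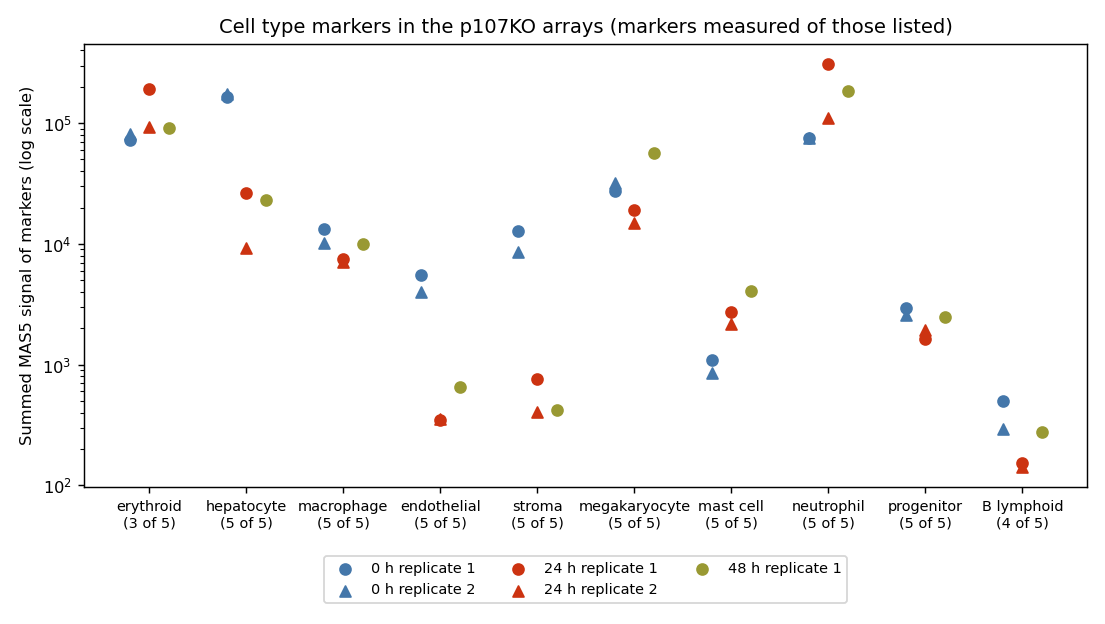
Summed signal (log axis, arbitrary units) of the markers of 10 cell types in each p107KO array, with the number of markers measured under each name; circles are replicate 1, triangles replicate 2, and colour gives the time. Hepatocyte, endothelial and stromal sums drop by far between 0 h and 24 h, and the erythroid and neutrophil sums are highest on 24 h replicate 1.

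Summed marker signals of the supporting cells were lower at 24 h. The summed signal of 5 stromal markers went from 12887 and 8582 at 0 h to 753 and 404 at 24 h. That of 5 endothelial markers went from 5503 and 4022 to 344 and 357. In both cell types every cultured array lay more than 10-fold below either fresh one. The sum of 5 hepatocyte markers went from 164980.0 and 175942 to 26257 and 9203. The sum of 5 macrophage markers went from 13182 and 10078 to 7528 and 7063.

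Among collagen and stromal genes 19 of 23 were lower (82.6%, against 16.7% of all genes) and 1 higher, median -2.87. Col3a1, a fibrillar collagen, gave 5438 and 4388 at 0 h and 124 and 53.2 at 24 h (-5.41 ± 0.39, limma adjusted p = 6.77e-10). Sparc, a matrix glycoprotein, gave 4332 and 1942 at 0 h and 264 and 10 at 24 h (-4.72 ± 0.70), and Dcn, the proteoglycan decorin, gave 2083 and 1129.9 at 0 h and 17.1 and 87.4 at 24 h (-4.36 ± 0.44). Both cultured arrays lay far below both fresh ones in all 3. Vim, the filament protein vimentin of mesenchymal and blood cells, was higher at 0.79 ± 0.29 (limma adjusted p of 0.0645 without 0 h replicate 1, 0.267 without 0 h replicate 2 and 0.442 without 24 h replicate 1). Of 16 endothelial genes 14 were lower (87.5%) and 0 higher, median -1.82. Lyve1, a hyaluronan receptor of liver sinusoids, gave 2378 and 1838 at 0 h and 9.4 and 11 at 24 h (-5.65 ± 0.28, limma adjusted p = 2.75e-12). Stab2, a scavenger receptor of the same cells, gave 1805 and 1343 at 0 h and 90.3 and 61.7 at 24 h (-3.89 ± 0.34). Pecam1, shared with platelets and leukocytes, gave -0.94 ± 0.63 and did not pass.

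Imprinted growth genes, expressed from 1 parental copy and abundant in fetal tissues, were lower in 12 of 14 tested (85.7%, against 16.7% of all genes). The number higher was 0, and the median was -2.74. Mest gave 7968 and 5192 at 0 h and 21.6 and 82.3 at 24 h (-6.37 ± 0.38, limma adjusted p = 4.28e-11). Dlk1, a Notch-related ligand of hepatoblasts, gave 21949 and 19593 at 0 h and 306 and 181 at 24 h (-6.27 ± 0.29), and the growth factor Igf2 gave 18688 and 16223 at 0 h and 1054 and 356 at 24 h (-4.75 ± 0.38). Plagl1 (-4.38 ± 0.27) fell likewise. Dlk1, Dcn and Cdkn1c also stand in other lists here. Gnas (0.37 ± 0.18) and Impact (-0.17 ± 0.25) did not pass.

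Most resident macrophage genes were lower. Of 17 tested, 11 were lower (64.7%, against 16.7% of all genes) and 1 higher, median -1.74. Both cultured arrays lay below both fresh ones in 14 of the 17 and above in 2, against 33.7% and 29.9% of all genes. Cd5l, a secreted protein of tissue macrophages, gave 5196 and 3526 at 0 h and 256 and 129 at 24 h (-4.32 ± 0.85, limma adjusted p = 0.000438). Vcam1, which tethers erythroblasts to the central macrophage, gave 5857 and 3410.0 at 0 h and 271 and 348 at 24 h (-3.73 ± 0.31), and the complement gene C1qa gave 1001 and 1114 at 0 h and 200.5 and 64.9 at 24 h (-2.86 ± 0.62). The general macrophage genes Adgre1 (0.21 ± 0.30), Cd68 (0.49 ± 0.37) and Csf1r (-0.60 ± 0.34) did not pass. Mrc1, the mannose receptor (-3.48 ± 0.28), and the phagocytic receptor gene Timd4 (-3.54 ± 0.55) fell as well. Marco, a scavenger receptor, was the member called higher, at 966 and 647 at 0 h and 2796 and 2485 at 24 h (1.7 ± 0.55, limma adjusted p of 0.155 without 0 h replicate 2, 0.12 without 24 h replicate 1 and 0.0637 without 24 h replicate 2).

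More lipid genes were lower than higher. Of 19 genes of lipid storage and efflux, 12 were lower (63.2%, against 16.7% of all genes) and 0 higher, median -1.15. Apoe, a lipoprotein of hepatocytes and macrophages, gave 12689 and 9603 at 0 h and 643 and 257 at 24 h (-4.65 ± 0.49, limma adjusted p = 2.13e-07). Scd1, which desaturates fatty acids, gave 4267 and 2336 at 0 h and 174 and 200.5 at 24 h (-3.87 ± 0.43), and Abca1, the cholesterol exporter, gave 9031 and 7043 at 0 h and 525 and 660.3 at 24 h (-3.69 ± 0.41). No cultured array came near the fresh ones in these genes. Of 20 cholesterol synthesis genes 8 were lower (40%) and 1 higher, median -0.45. The last enzyme of the pathway, Dhcr7, gave 2391 and 3242 at 0 h and 309 and 217 at 24 h (-3.27 ± 0.40, limma adjusted p = 1.58e-06), while an early enzyme, Hmgcs1, changed by -1.43 ± 0.22 and Idi1, an isomerase, rose by 0.75 ± 0.18. The sterol response element, searched as ATCAC, any base and CCAC, was in 0 of the 10 windows of the genes that fell and in 0.234% of all windows. Of 25 hypoxia and glycolysis genes 8 were lower (32%, against 16.7% of all genes) and 2 higher (8%, against 11.5%). But 1 was lower without replicate 1 of 0 h, 3 without replicate 2 of 0 h, 2 without replicate 1 of 24 h and 4 without replicate 2 of 24 h. Ndrg1, a hypoxia-induced gene, gave 1573 and 1136 at 0 h and 231 and 189 at 24 h (-2.5 ± 0.31) and was lower without each array.

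Most globin, heme synthesis and erythroid factor genes did not pass the threshold, as was so of all genes, of which 28.1% passed. The sum of 3 erythroid markers was 72508 and 81863 at 0 h, 192566 and 92423 at 24 h, and 91685 at 48 h. The high value at 24 h belonged to replicate 1, and replicate 2 was close to the fresh arrays. Alas2, the first enzyme of heme synthesis in red cells, gave 21642 and 23408 at 0 h and 79276 and 33803 at 24 h (1.2 ± 0.31, limma adjusted p of 0.21 without 24 h replicate 1). Slc4a1, the anion exchanger band 3, gave 33725 and 37648 at 0 h and 77900.4 and 36409 at 24 h (0.58 ± 0.30, limma adjusted p = 0.153). Of 5 globin genes tested 2 were higher (40%, against 11.5% of all genes), and 0 were without replicate 1 of 24 h or without either 0 h array. Hbb-b2 gave 17813 and 14057 at 0 h and 53292 and 19309 at 24 h (1.02 ± 0.38, limma adjusted p of 0.0868 without 0 h replicate 1, 0.22 without 0 h replicate 2 and 0.692 without 24 h replicate 1), and its probe sets may read the near-identical adult beta copy. Of 12 heme synthesis genes 2 were higher (16.7%, against 11.5% of all genes) and 1 lower (8.33%, against 16.7%). Of 16 erythroid transcription factors 2 were higher (12.5%) and 1 lower (6.25%). Without replicate 1 of 24 h 0 genes of these 3 lists passed. Alas2 then changed by 0.59, Nfe2 by 0.67 and Myb by -0.48, in the same direction as with all arrays (Nfe2 0.91 ± 0.21, limma adjusted p of 0.0552 without 24 h replicate 1, and Myb -0.80 ± 0.21, limma adjusted p of 0.179 without 24 h replicate 1). After quantile normalization these 3 passed, at 0.64 (limma adjusted p = 0.000627) for Alas2, 0.64 (limma adjusted p = 0.00259) for Nfe2 and -0.85 (limma adjusted p = 0.00328) for Myb. The lower heme synthesis gene, Slc25a38, at -0.63 ± 0.23, lost its call with any of the 4 arrays left out (limma adjusted p of 0.0937 without 0 h replicate 1, 0.223 without 0 h replicate 2, 0.163 without 24 h replicate 1 and 0.119 without 24 h replicate 2). Gata1, the central erythroid factor, gave 4630.2 and 6211 at 0 h and 9552 and 7749 at 24 h (0.68 ± 0.21, limma adjusted p of 0.218 without 0 h replicate 1 and 0.161 without 24 h replicate 1), and Klf1, which switches on adult globin, gave 17141 and 20807 at 0 h and 35389 and 22211 at 24 h (0.57 ± 0.24, limma adjusted p = 0.0754).

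The same array carried other bright gene groups. Of 23 cytosolic ribosomal protein genes 12 were higher (52.2%, against 11.5% of all genes) with a median of 0.69. The count was 0 without replicate 1 of 24 h, 1 without replicate 1 of 0 h, 20 without replicate 2 of 24 h and 3 after quantile normalization. Rps19, a small-subunit protein needed for red cell production, gave 16077 and 18398 at 0 h and 39813 and 24849 at 24 h (0.87 ± 0.21, limma adjusted p of 0.111 without 24 h replicate 1). Of 38 oxidative phosphorylation genes 4 were higher (10.5%, near the 11.5% of all genes). Their count was 0 without replicate 1 of 24 h and 14 without replicate 2 of 24 h. It was 1 without replicate 1 of 0 h, 2 without replicate 2 of 0 h and 2 after quantile normalization. Of 16 neutrophil granule genes 5 were higher (31.2%, against 11.5% of all genes). Their count was 0 without replicate 1 of 24 h, 3 without replicate 1 of 0 h, 1 without replicate 2 of 0 h and 7 after quantile normalization. S100a8, a calcium-binding protein of neutrophils, gave 29807 and 29404 at 0 h and 154046 and 43421 at 24 h (1.47 ± 0.43, limma adjusted p of 0.065 without 0 h replicate 1, 0.0614 without 0 h replicate 2 and 0.421 without 24 h replicate 1). S100a9, its partner, gave 18728 and 19891 at 0 h and 108596 and 34373 at 24 h (1.66 ± 0.45, limma adjusted p of 0.249 without 24 h replicate 1). After quantile normalization S100a8 passed at 0.72 (limma adjusted p = 0.00371) and S100a9 at 1.05 (limma adjusted p = 0.00419). The summed signal of 5 neutrophil markers was 308413 on replicate 1 and 111301 on replicate 2, against 75328 and 75736 at 0 h. In WT culture, on other arrays, 18 of the 23 ribosomal protein genes were higher, with a median of 0.71. There 11 of 38 oxidative phosphorylation and 7 of 16 neutrophil granule genes were higher, against 1638 of all 10916 genes. Lower in WT were 0 ribosomal protein, 3 oxidative phosphorylation and 0 neutrophil granule genes. How far the brightness of replicate 1 enters the p107KO rises was not tested.

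Late erythroid clearance genes, of autophagy, ubiquitination and red cell maturation, gave 11 of 23 higher (47.8%, against 11.5% of all genes) and 0 lower. Without replicate 1 of 24 h 7 were higher. Bpgm, which makes the red cell's oxygen-release metabolite, gave 10938 and 9649.6 at 0 h and 34561 and 17530.4 at 24 h (1.26 ± 0.25, limma adjusted p = 0.000522). Gabarapl1, of the autophagosome membrane, gave 1002 and 929 at 0 h and 2957 and 3199.5 at 24 h (1.64 ± 0.18), and Ube2l6, a conjugating enzyme also induced by interferon, gave 2862 and 2457 at 0 h and 7028 and 4121 at 24 h (1.01 ± 0.21). These held without each array. Of 14 iron genes 2 were higher (14.3%, against 11.5% of all genes) and 5 lower (35.7%, against 16.7%). Without replicate 1 of 24 h 0 were higher and 3 lower. The number lower was also 3 without replicate 2 of 24 h or without replicate 2 of 0 h. Tfr2, the iron sensor of liver and erythroblasts, fell, with 4645 and 5348 at 0 h and 1824 and 2418 at 24 h (-1.23 ± 0.25), and Tfrc, the transferrin receptor, gave 21369.6 and 24351 at 0 h and 64923 and 33695 at 24 h (1.03 ± 0.23, limma adjusted p of 0.0867 without 24 h replicate 1). Of 20 membrane skeleton genes 2 were higher (10%, against 11.5% of all genes) and 2 lower (10%, against 16.7%). Their number lower was 1 without any 1 of the 4 arrays and 6 after quantile normalization. Their number higher was 1 without replicate 1 of 24 h and 7 without replicate 2 of 24 h. Slc25a37, the mitochondrial iron importer, gave 0.32 ± 0.23 on the deposited scale and -0.37 after quantile normalization (limma adjusted p = 0.0334), so its direction depends on the scaling.

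Signalling through erythropoietin, KIT and STAT5 drives red cell progenitors. Of 24 genes of this list 9 were higher (37.5%, against 11.5% of all genes) and 4 lower (16.7%, as over all genes), and 5 were higher and 1 lower without replicate 1 of 24 h. Without replicate 2 of 0 h 4 were higher and 2 lower, and without replicate 1 of 0 h 2 were lower. Cish, a feedback inhibitor induced by STAT5, gave 568 and 647 at 0 h and 6619.8 and 5114 at 24 h (3.2 ± 0.20, limma adjusted p = 8.25e-11). Socs3, another feedback inhibitor, gave 622 and 420.0 at 0 h and 2049 and 1440.2 at 24 h (1.69 ± 0.33), and the survival kinase gene Pim1 gave 5958 and 6247 at 0 h and 16527 and 14628 at 24 h (1.35 ± 0.14). The fresh and cultured arrays did not overlap in any of the 3. Dusp6, a phosphatase induced by ERK, fell, with 774 and 492 at 0 h and 203 and 139 at 24 h (-1.7 ± 0.35). Kit, the stem cell factor receptor, was lower at -1.01 ± 0.31 (limma adjusted p of 0.167 without 0 h replicate 1, 0.0907 without 24 h replicate 1 and 0.0509 without 24 h replicate 2), and the receptor gene Epor at -0.91 ± 0.28 (limma adjusted p of 0.141 without 0 h replicate 2 and 0.0863 without 24 h replicate 1).

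Most genes of other blood lineages did not pass the threshold, as was so of all genes, of which 28.1% passed. Of 20 stem and progenitor genes 2 were higher (10%, against 11.5% of all genes) and 4 lower (20%, against 16.7%), and 2 lower without replicate 1 of 24 h. Cebpa, which directs granulocyte fate, fell, with 1078 and 945 at 0 h and 299 and 315 at 24 h (-1.62 ± 0.29, limma adjusted p = 0.000163), and Spi1, encoding the myeloid factor PU.1, gave 276 and 379 at 0 h and 1050.0 and 759 at 24 h (1.38 ± 0.30). Megakaryocyte and platelet genes were lower in 5 of 19 (26.3%, against 16.7% of all genes) and higher in 0, and lower in 1 without replicate 2 of 0 h. Ppbp, a platelet chemokine, gave 10969.9 and 12405 at 0 h and 3732 and 3399.9 at 24 h (-1.7 ± 0.36), and the 48 h array gave 12299.8. Of 7 mast cell genes 2 were higher (28.6%, against 11.5% of all genes) and 1 lower (14.3%, against 16.7%). Without replicate 1 of 24 h 1 was higher and 0 lower, 1 was higher without replicate 2 of 0 h, and 0 were lower without replicate 1 of 0 h or replicate 2 of 24 h. Ms4a2, a chain of the IgE receptor, gave 130.1 and 63.4 at 0 h and 349 and 312 at 24 h (1.54 ± 0.36, limma adjusted p of 0.061 without 0 h replicate 2). B lymphoid markers were low throughout, with sums of 4 markers between 142 and 499 on the 4 arrays.

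The change in p107KO was then set against that in WT, to ask whether loss of p107 altered the response to culture. No gene passed the test of the difference between the changes (0 of 10916, 0%, limma; 317 at an unadjusted p under 0.05, and a smallest adjusted p of 0.382). The difference was under 2-fold in 96.9% of genes. Its 95% confidence interval had a median half-width of 0.78 on the log2 scale and lay within 2-fold either way in 5040 genes, so for the other genes a 2-fold difference was not excluded by the interval. In simulated data the same test recovered 14% of 2-fold and 69% of 4-fold differences. The absence of calls therefore does not show that the genotypes responded alike.

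**Figure D4:**
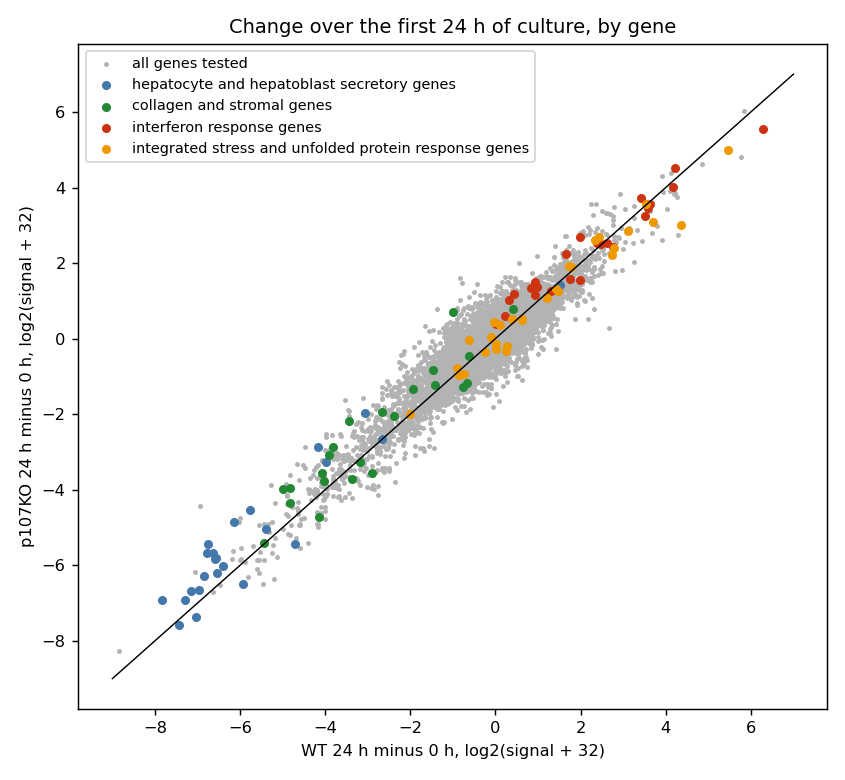
Change over 24 h of culture in p107KO (vertical) against WT (horizontal), both as log2(signal + 32), for each of 10916 genes, with 4 lists in colour and the line of equal change. Most hepatocyte genes lie at the lower left and most interferon genes at the upper right, near the line, and no gene passed the test of the difference.

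Both changes run along the line of equality, with Pearson's r of 0.928 and Spearman's rho of 0.853 across the 10916 genes and a slope of 0.89. Genes are not independent replicates, and these values are a description. The 2 changes share no array. Hepatocyte genes had a median of -5.75 in p107KO and -6.55 in WT. Interferon genes had medians of 2.33 and 1.99, and stress response genes 0.52 and 0.62. Cdkn1a changed by 5.77 ± 0.26 in WT, a difference of -0.97 (limma adjusted p = 0.999). Spi1 changed by 0.10 ± 0.27 in WT, a difference of 1.28 (limma adjusted p = 0.999), and Sesn2 by 4.36 ± 0.52, a difference of -1.36 (limma adjusted p = 0.999). E2F-regulated genes had medians of 0.12 and 0.09.

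Against Rb1KO, 33 genes (0.302% of 10916) passed the test of the difference in culture changes, 8 higher (0.0733%) and 25 lower (0.229%) in p107KO, with 949 at an unadjusted p under 0.05. The count was 10 without replicate 1 of p107KO at 0 h, 10 without replicate 2 at 0 h, 16 without replicate 1 at 24 h and 68 without replicate 2 at 24 h. Dleu2, the host transcript of a microRNA pair that restrains the cell cycle, had the largest difference. In p107KO it gave 323 and 270.1 at 0 h and 499.9 and 539 at 24 h, a change of 0.75 ± 0.26. In Rb1KO its mean rose from 666 ± 149 (SD, n = 5) to 11049 ± 3034 (SD, n = 4), a change of 3.97 ± 0.18 and a difference of -3.22 ± 0.32 (limma adjusted p = 9.2e-06). Apold1, an immediate early gene of endothelium, gave 222 and 166 at 0 h and 144 and 153 at 24 h in p107KO, and 199 ± 42.8 (SD, n = 5) and 1288 ± 467 (SD, n = 4) in Rb1KO (-2.79 ± 0.35, limma adjusted p = 0.000393). In the probe sets of Dleu2 the p107KO changes disagreed, at 0.75, 0.74 and -1.01.

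**Figure D5:**
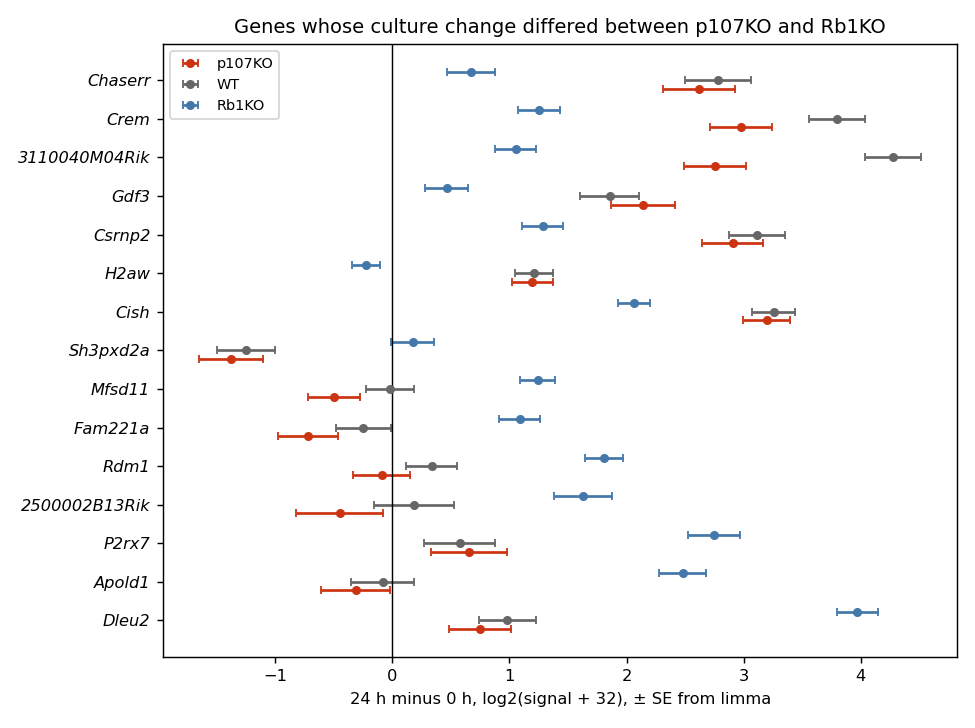
Change over 24 h of culture (log2(signal + 32), points with SE from limma) in p107KO, WT and Rb1KO for the 15 leading genes whose change differed between p107KO and Rb1KO. For Dleu2 and Apold1 the Rb1KO point lies far to the right of the p107KO point, and for Crem and Cish to its left.

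Genes with a higher change in p107KO included signalling genes. Crem, a cyclic AMP response factor, gave 138 and 129.6 at 0 h and 1090.4 and 1488 at 24 h in p107KO (2.98 ± 0.27) and changed by 1.25 ± 0.18 in Rb1KO (1.72 ± 0.32 apart, limma adjusted p = 0.0167). Cish changed by 2.07 ± 0.13 in Rb1KO, a difference of 1.13 ± 0.24 (limma adjusted p = 0.0412). H2aw, a histone H2A gene, gave 766 and 746 at 0 h and 1930.4 and 1625 at 24 h and changed by 1.19 ± 0.18, against -0.22 ± 0.12 in Rb1KO (1.42 ± 0.21 apart, limma adjusted p = 0.00226). Gdf3, a TGF-beta family ligand, gave 265 and 424 at 0 h and 1481 and 1708 at 24 h (2.14 ± 0.27), against 0.47 ± 0.18. Lower in p107KO were P2rx7, an ATP-gated channel (0.65 ± 0.33 against 2.75 ± 0.22 in Rb1KO), Rdm1 (-0.09 ± 0.24 against 1.81 ± 0.16) and Mfsd11 (-0.50 ± 0.22 against 1.24 ± 0.15). For comparison, the changes in WT were 0.98 ± 0.24 for Dleu2, -0.08 ± 0.27 for Apold1 and 0.57 ± 0.30 for P2rx7. They were 3.8 ± 0.24 for Crem, 3.26 ± 0.18 for Cish and 1.21 ± 0.16 for H2aw. None of these differences between WT and p107KO passed the test (limma adjusted p = 0.999 for each).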

How the data were processed

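Total RNA labelled with biotin was hybridized to Affymetrix mouse arrays. Per the submitters' processing notes, the authors used MAS5 in GCOS 1.4, and the deposited values are signal intensities on a linear scale. Trimmed means (2% off each end) lay between 491.9 and 497.7 on every array. Probe sets with 1 gene symbol were used (34945 of 45037, with 932 holding several and 9160 unnamed), 34741 of them matched to the GRCm38.p6 gene table. The brightest probe set stood for a gene, and the dimmest 40% of 18193 genes were left out. limma 3.58.1 in R 4.3.3 fitted log2(signal + 32) with 1 mean per group over all 27 arrays and 12 groups (15 residual degrees of freedom plus a prior of 7.17) with a variance trend. Adjusted p-values are two-sided Benjamini-Hochberg values over 10916 genes, with a threshold of 0.05. The contrasts were 24 h against 0 h in p107KO, WT and Rb1KO, and the differences of the p107KO change from each of the others. Steps were tested on simulated data with 100 genes changed 2-fold, 100 changed 4-fold and all others held unchanged over culture. Arrays have no read depth, so their number limits the precision.

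Named genes were the 15 largest rises and falls (adjusted p under 0.05, higher group above the median gene, arrays not overlapping), the 8 largest differences each way, up to 5 members per list with the smallest adjusted p and all members of lists of 13 or fewer, and cell type markers. All other genes named were chosen after their values were seen. The members and lists were chosen with earlier results of these data known. Promoter windows are RefSeq's. Figures were drawn with matplotlib 3.10.9. Alternatives were other pseudocounts, filters, quantile normalization, probe set means, array weights, a replicate block, fewer groups and arrays left out. Scanner images and detection calls were not used here.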

Additional observations from a re-analysis of the deposited data

Results flagged for a closer look

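The change over the first 24 h of culture differed between p107KO and Rb1KO, by the test of the difference itself, in the 15 named genes below (values are the p107KO change minus the Rb1KO change on the log2(signal + 32) scale). No explanation was tested for any of them. None of them passed the test of the difference between p107KO and WT, in which 0 of 10916 genes passed. Higher in p107KO were Chaserr (1.95), Crem (1.72), 3110040M04Rik (1.7), Gdf3 (1.68), Csrnp2 (1.62), H2aw (1.42) and Cish (1.13). Lower in p107KO were Dleu2 (-3.22), Apold1 (-2.79), P2rx7 (-2.09), 2500002B13Rik (-2.08), Rdm1 (-1.9), Fam221a (-1.81), Mfsd11 (-1.74) and Sh3pxd2a (-1.55). The adjusted p-values of these 15 genes in limma ran up to 0.0428. In the probe sets of Chaserr the p107KO changes disagreed, at 2.62 and 0.18. With the arrays carrying Y-linked signal left out, only Dleu2 stayed past the threshold.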

How the results depend on the processing

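The count of genes called in p107KO culture was 3070 and lay between 2140 and 3210 under other pseudocounts, filters, scalings, probe set rules, weights and sets of arrays, except without the arrays that carried Y-linked signal, where 1056 genes were called, 1038 of them also with all arrays, with 1 p107KO array at each time, assumed to vary like the other groups. Leaving out 1 p107KO array at a time gave 1948 to 2915. Members of all lists called higher numbered 167, and 74 without the Y-linked arrays (108 to 188 leaving out single arrays). Those called lower numbered 145, and 87 without the Y-linked arrays (115 to 139 leaving out single arrays). The difference from WT gave 0 calls in every setting run. The difference from Rb1KO gave 33 calls, 19 with no filter, 6 with only the groups compared, 13 without the 4 arrays apart (replicate 1 of p107KO, Rb1KO and DKO, the knockout of both genes, at 24 h, and Rb1KO 0 h replicate 5) and 1 without the Y-linked arrays, with 10 to 68 leaving out single arrays. The causes of these shifts were not tested. Quantile normalization moved the share of calls that were higher from 40.7% to 46.7% and turned the direction of Slc25a37 (-0.37), and the mean over probe sets turned Mt1 (-0.17).

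The labels give replicate numbers 1 and 2 at both times but do not say that a number marks a shared animal. Deviations of same-numbered p107KO arrays from their group means at 0 h and 24 h correlated at 0.20 across genes. The deviations of 2 arrays from their mean mirror each other, so this is 1 comparison. With the replicate block the count for p107KO was 2969, of which 2802 were called without it, and the difference from Rb1KO gave 10. With 2 arrays a group, array number limits precision, and signals near the floor have poorly set folds.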

Other observations

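The glucocorticoid and clock list, not described above, gave 5 of 16 genes higher (31.2%, against 11.5% of all genes) and 0 lower. The number higher was 2 without replicate 1 of 24 h or without replicate 2 of 0 h, and 3 without replicate 1 of 0 h. Klf9, a glucocorticoid-induced repressor, gave 362 and 327 at 0 h and 888 and 771 at 24 h (1.19 ± 0.18, limma adjusted p = 2.7e-05). Other Klf9 probe sets changed by -0.21 to 1.02, with 0.41 in the set brightest at 0 h. Zbtb16, the zinc finger factor PLZF, gave 159.6 and 179 at 0 h and 351 and 418 at 24 h (1.04 ± 0.26). Arntl, the clock activator, gave 279 and 222 at 0 h and 42.9 and 160.4 at 24 h (-1.23 ± 0.46, limma adjusted p = 0.0501) and did not pass. The TGF-beta list gave 3 of 15 higher (20%, against 11.5% of all genes) and 2 lower (13.3%, against 16.7%). Without replicate 1 of 0 h or replicate 2 of 24 h 1 was lower. Skil, a repressor of SMAD signalling, gave 918 and 995 at 0 h and 2616 and 2226 at 24 h (1.31 ± 0.24, limma adjusted p = 0.000204), and Ltbp1, which stores latent TGF-beta in matrix, fell, with 532 and 463 at 0 h and 160.5 and 102 at 24 h (-1.72 ± 0.33). Ribosome biogenesis genes gave 1 of 26 higher (3.85%, against 11.5% of all genes) and 2 lower (7.69%, against 16.7%). The number higher was 0 without replicate 1 of 0 h or without either 24 h array, and the number lower was 1 without replicate 1 of 24 h or without either 0 h array and 5 without replicate 2 of 24 h. Utp20, of the small-subunit processome, fell, with 1255 and 1510.5 at 0 h and 494 and 795 at 24 h (-1.09 ± 0.23), while Npm1, the nucleolar chaperone, gave 0.10 ± 0.22 and did not pass. The MYC network gave 1 of 11 higher (9.09%, against 11.5% of all genes) and 0 lower. The call was Mxi1 (0.66 ± 0.18, limma adjusted p of 0.132 without 0 h replicate 2 and 0.0771 without 24 h replicate 1), and Myc itself gave 2103 and 2088 at 0 h and 1239 and 2029 at 24 h (-0.39 ± 0.25, limma adjusted p = 0.268). Lymphoid genes gave 2 of 5 higher (40%, against 11.5% of all genes) and 0 lower. Without replicate 1 of 24 h or without either 0 h array 1 was higher.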
